A study of Mus musculus with 9 samples.

Results

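The genes described encode accessory parts of the myosin motor in mouse heart, namely the light chain genes Myl1, Myl2, Myl3, Myl4 and Myl7, the cardiac light chain kinase Mylk3, and the myosin-binding protein genes Mybpc3 and Mybphl. They are 8 of 41710 gene names in the transcript tables, picked by name with their earlier results in these same hearts known. Their levels and differences are therefore given as a description, with counts of calls but without p-values, and p-values are printed only for genes outside this set. The tables held 43 transcripts of these genes among 127558, and their reads and their TPM (a level corrected for transcript length and for the library's total) were summed by gene.

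Whole hearts of 9 male mice aged 8 months, all of FVB/N background, were sequenced, with 3 mice in each group. Tg-RKIP mice carried an RKIP transgene (RKIP is RAF kinase inhibitor protein, encoded by Pebp1) that the alpha-MHC promoter drives in the myocardium, the mice labelled Tg-GRK2 carry one for GRK2 per the labels (G protein-coupled receptor kinase 2, promoter not given in the sources used here), and the FVB controls carried no transgene. Total reads ran from 25458108 to 33447654 per library, and the members took 1.29% to 1.44% of them. Each heart was pulverised whole, so atria and ventricles were not separated, and fewer cells of a type and less RNA per cell cannot be told apart.

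The transgene check split the groups. Pebp1 stood at 16198 ± 208 TPM (SD, n = 3) in Tg-RKIP against 325 ± 4.54 in FVB. Its log2 fold change was 4.81 ± 0.02 (SE) in read counts after the TMM scaling explained below, and 5.64 in log2 TPM. Grk2 stood at 27.3 ± 2.90 TPM in the libraries labelled Tg-GRK2 against 27.1 ± 1.05 in FVB. The log2 fold change of Grk2 after TMM scaling was 0.05 ± 0.04, with an adjusted p of 0.354 (edgeR quasi-likelihood test). The hearts labelled Tg-GRK2 are therefore called by their label throughout. The tissue showed its defining markers, and the 8 cardiomyocyte genes on the list summed to between 37168 and 39184 TPM in all 9 libraries. Other cell types' genes moved with the groups. Adipocyte markers summed to 8.50 to 10.1 TPM in FVB, 19.5 to 21.6 in hearts labelled Tg-GRK2 and 73.8 to 78.2 in Tg-RKIP, and erythrocyte markers to 607 to 623, 1376 to 1421 and 2729 to 2907 TPM. The airway secretory genes Scgb1a1, Scgb3a2 and Bpifa1 had 0 reads in FVB, while the 4 airway markers summed to 180 to 190 TPM in hearts labelled Tg-GRK2 and 84.7 to 90.1 in Tg-RKIP. Their part in the results on myosin genes was not tested.

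Each myosin head in muscle carries an essential and a regulatory light chain wrapped around its lever arm. The regulatory chain can be phosphorylated, in heart mainly by the kinase that Mylk3 encodes, and this moves the heads towards actin and raises force. Atrial and ventricular muscle use different light chains, and a rise of the atrial essential chain in ventricles is a known feature of cardiac hypertrophy. Myosin-binding protein C sits in stripes along the thick filament and restrains the heads, and variants of its gene are a common cause of inherited hypertrophic cardiomyopathy.

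One difference between the libraries, whose cause was not tested, bears on every comparison with Tg-RKIP. Mitochondrially encoded transcripts took 11.7% ± 0.156 of reads in Tg-RKIP but 23.1% ± 0.158 in FVB and 22.6% ± 0.299 in hearts labelled Tg-GRK2, and values given relative to the total move with that share. Other shares differed too, as Myh6 took 1.11% of reads in Tg-RKIP and 2.19% in FVB. The median log2 difference between Tg-RKIP and FVB over all tested genes was 0.0085 after TMM scaling, which sets the typical gene to no change, and 0.38 when libraries were scaled by their size only. How much of the 0.38 goes with the mitochondrial share was not tested. Differences below are on the TMM scale unless said otherwise, and levels are TPM. On the TMM scale 8 of 8 members passed an adjusted p of 0.05 between Tg-RKIP and FVB, 3 higher and 5 lower, where 73.9% of the 15504 tested genes did (36.8% higher, 37.1% lower). Between the libraries labelled Tg-GRK2 and FVB it was 6 of 8, 3 in each direction, against 24.5% (12.2% higher, 12.2% lower). Between Tg-RKIP and the libraries labelled Tg-GRK2 it was 8 of 8, again 3 higher and 5 lower, against 74.5% (37.9% higher, 36.6% lower). In the same 3 comparisons the groups did not overlap in TPM for 8 of 8, 5 of 8 and 8 of 8 members, against 78.8%, 33.8% and 78.5% of tested genes, and in TMM-normalized counts for 8, 6 and 8 members, against 75.7%, 37.1% and 76.4%. Because the members were chosen with these contrasts known, nothing is read from these counts. The median log2 difference of the 8 members was -0.17, 0.06 and -0.25 in the 3 comparisons, beside 0.0085, -0.0023 and 0.02 over all tested genes.

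**Figure D1:**
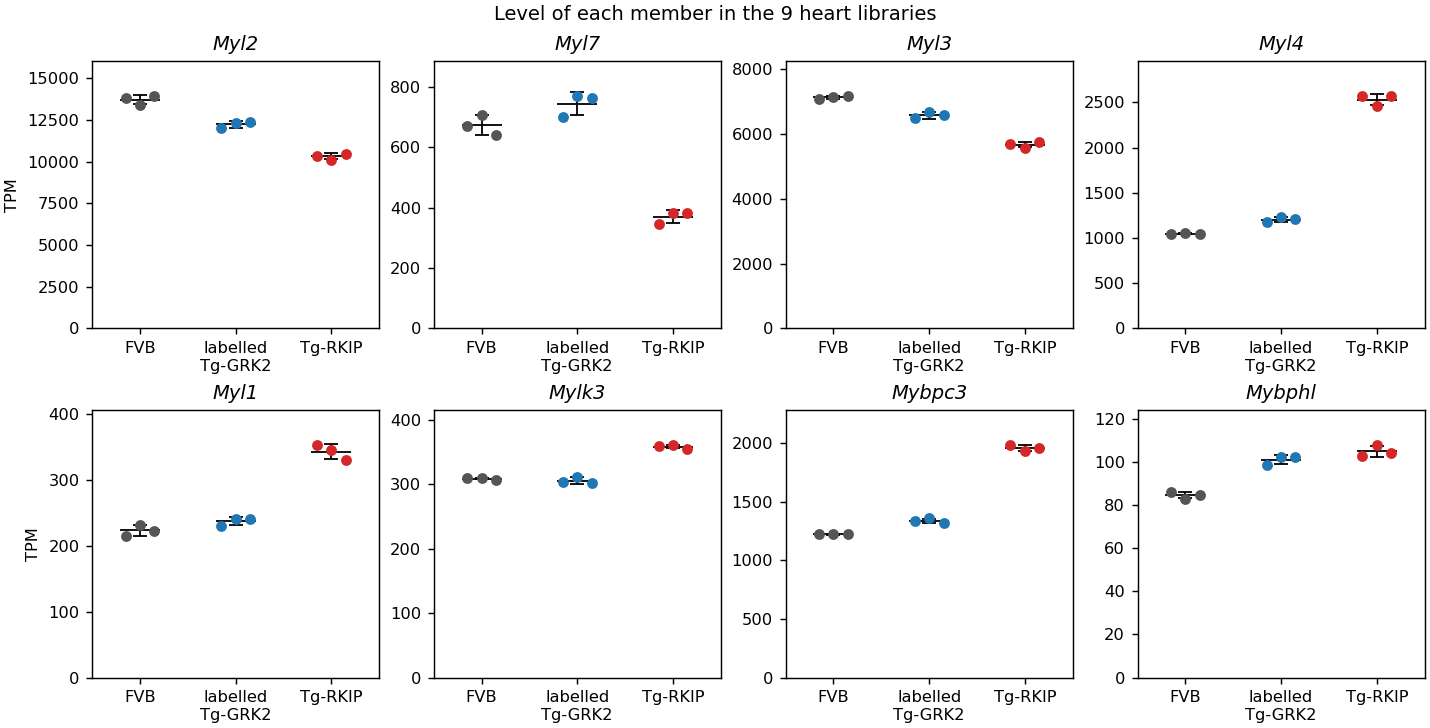
Level of each of the 8 genes (TPM, y axis from 0) in the 3 FVB, 3 labelled Tg-GRK2 and 3 Tg-RKIP libraries; each point is a heart, bars are the mean and SD. Myl2, Myl7 and Myl3 were lowest in Tg-RKIP, and the other 5 genes had their highest group mean there, though on the TMM scale Mylk3 and Mybphl were lower in Tg-RKIP than in FVB.

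The regulatory light chains were both lower in Tg-RKIP, the atrial form more so. Myl2 (ENSMUSG00000013936, GRCm39 chr5:122239014-122251535, plus strand) encodes the ventricular regulatory light chain and was the most abundant member. It was measured at 13803, 13391 and 13933 TPM in the FVB hearts, at 12007, 12339 and 12375 in the hearts labelled Tg-GRK2, and at 10350, 10125 and 10472 in the Tg-RKIP hearts. The groups formed 3 steps that did not overlap. The log2 difference of Myl2 was -0.83 ± 0.02 (SE) for Tg-RKIP against FVB, -0.22 ± 0.02 for the libraries labelled Tg-GRK2 against FVB, and -0.60 ± 0.02 for Tg-RKIP against the libraries labelled Tg-GRK2. Scaling by library size alone gave the smaller values -0.45, -0.21 and -0.24.

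Myl7 (ENSMUSG00000020469, GRCm39 chr11:5846637-5848782, minus strand) encodes the atrial regulatory light chain. Its level was 671, 707 and 642 TPM in FVB, 700, 770 and 764 in hearts labelled Tg-GRK2, and 344, 381 and 383 in Tg-RKIP. The Tg-RKIP hearts lay at 0.549 times the FVB mean in TPM, while the ranges of the other two groups overlapped. On the TMM scale Myl7 differed by -1.28 ± 0.04 between Tg-RKIP and FVB and by 0.09 ± 0.04 between the libraries labelled Tg-GRK2 and FVB. On that scale no other member differed more between Tg-RKIP and FVB, whereas by library size only Myl4 did (1.20 against -0.91). Myl7 also had the widest spread within groups, with a coefficient of variation in TPM of 4.88% to 5.92% against 0.272% to 3.70% for the other 7.

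Within the regulatory pair, the atrial share is the TPM of Myl7 over that of Myl2 and Myl7, a ratio that no scaling of a library can change. The atrial share was 4.64%, 5.02% and 4.40% in FVB, 5.51%, 5.87% and 5.81% in hearts labelled Tg-GRK2, and 3.22%, 3.63% and 3.53% in Tg-RKIP. The Tg-RKIP hearts thus had the lowest shares and the hearts labelled Tg-GRK2 the highest, and the 3 ranges did not overlap. As reads in place of TPM the means were 3.70%, 6.16% and 5.00% for Tg-RKIP, labelled Tg-GRK2 and FVB, in the same order. With only the most abundant transcript of each gene they were 7.84%, 13.1% and 10.4%, so the level of the share depends on transcript assignment. ENSMUST00000152744, a model not labelled protein-coding, held 7170 of the 13709 TPM of Myl2 in FVB and 5884 of 10316 in Tg-RKIP.

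The 250 bases upstream of the Myl7 start are shown because it differed most on the TMM scale (Myl4 did by library size only) and the whole gene is read as 1 transcript, whose start matches the RefSeq start used here. The sequence is from RefSeq, GRCm38.p6, chr11:5898783-5899032, minus strand, printed 5′ to 3′ as are all those that follow. Capitals mark, in order, the MCAT letters CATTCC (read by TEAD factors), a CArG box (bound by serum response factor) and the GATA letters GATAAG. E-boxes (letters CANNTG), held by 7 of the 10 promoters of the members and 66.2% of all promoters, are left in small letters throughout.

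Myl7 upstream: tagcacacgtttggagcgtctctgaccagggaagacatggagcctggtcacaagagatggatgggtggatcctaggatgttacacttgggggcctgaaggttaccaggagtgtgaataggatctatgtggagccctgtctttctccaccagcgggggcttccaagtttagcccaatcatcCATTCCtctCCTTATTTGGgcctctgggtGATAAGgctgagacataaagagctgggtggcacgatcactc

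The MCAT match began at position -70 counted from the start, the CArG box at -61 and the GATA match at -41. Both strands of the 250 bases were searched, and of 32817 mouse promoters of that length 12.6% held CATTCC, 1.47% a CArG box and 6.55% GATAAG. For Myl2 the RefSeq table gave starts 7762 and 8227 bases away from that of the transcript that most reads were assigned to, so no Myl2 promoter is shown.

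**Figure D2:**
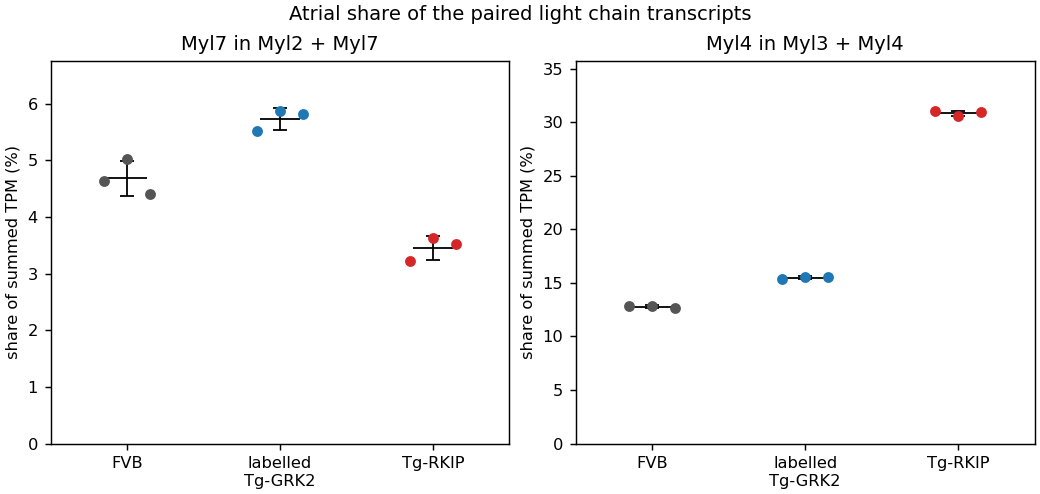
Atrial share of the summed TPM of the regulatory pair (Myl7 in Myl2 plus Myl7, left) and of the essential pair (Myl4 in Myl3 plus Myl4, right) in each of the 9 hearts, y axes in percent from 0, bars mean and SD. The Tg-RKIP hearts have the lowest shares of the regulatory pair, 3.22% to 3.63%, and the highest of the essential pair, 30.6% to 31.0%.

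The essential light chains went apart: the ventricular form was lower and the atrial form higher in Tg-RKIP. Myl3 (ENSMUSG00000059741, GRCm39 chr9:110570929-110598866, plus strand) encodes the ventricular essential light chain, which slow skeletal muscle also uses. It was measured at 7083, 7129 and 7173 TPM in FVB, 6479, 6689 and 6571 in the hearts labelled Tg-GRK2 and 5699, 5580 and 5746 in Tg-RKIP. Like Myl2 it formed 3 steps without overlap. The log2 difference of Myl3 was -0.73 ± 0.02 for Tg-RKIP against FVB and -0.16 ± 0.02 for the libraries labelled Tg-GRK2 against FVB, or -0.36 and -0.14 by library size only.

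Myl4 (ENSMUSG00000061086, GRCm39 chr11:104441489-104486579, plus strand) encodes the atrial essential light chain, which the embryonic ventricle also expresses. Its TPM was 1044, 1051 and 1041 in the FVB hearts, 1173, 1229 and 1213 in the hearts labelled Tg-GRK2 and 2565, 2459 and 2571 in the Tg-RKIP hearts. The Tg-RKIP mean was 2.42 times that of FVB in TPM, and no range overlapped another. On the TMM scale the Myl4 difference was 0.83 ± 0.02 between Tg-RKIP and FVB, 0.15 ± 0.02 between the libraries labelled Tg-GRK2 and FVB, and 0.68 ± 0.02 between Tg-RKIP and the libraries labelled Tg-GRK2. Leaving out any library kept the value for Tg-RKIP against FVB between 0.81 and 0.84.

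Myl4 made up 12.8%, 12.8% and 12.7% of the essential pair's TPM in FVB, 15.3%, 15.5% and 15.6% in hearts labelled Tg-GRK2, and 31.0%, 30.6% and 30.9% in Tg-RKIP. In Tg-RKIP the atrial share of the essential pair was therefore above that of both other groups, while the atrial share of the regulatory pair was below it, as the plot of the paired shares shows.

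Myl1 (ENSMUSG00000061816, GRCm39 chr1:66963454-66984563, minus strand) encodes the essential light chains of fast skeletal muscle. It was read at 215, 231 and 223 TPM in FVB, 230, 240 and 241 in hearts labelled Tg-GRK2, and 353, 345 and 330 in Tg-RKIP. Only the Tg-RKIP range stood clear of the others. The TMM difference of Myl1 was 0.17 ± 0.03 between Tg-RKIP and FVB and 0.05 ± 0.03 between the libraries labelled Tg-GRK2 and FVB, against 0.54 and 0.06 by library size only. Of the 50-base windows in the transcript that takes most Myl1 reads, 32.1% also occur in the pseudogene Mylf-ps in GENCODE M21, so part of the count is uncertain. The 10 skeletal muscle markers, such as the fast heavy chains Myh1, Myh2 and Myh4, summed to 3.04 to 4.46 TPM in FVB, 3.22 to 3.84 in hearts labelled Tg-GRK2 and 6.85 to 7.88 in Tg-RKIP, far under Myl1 itself. Tnnc2, the fast troponin C gene, had 0 reads in Tg-RKIP and at most 1 per library elsewhere. Of the 4 markers tested, Tnnt3 and Actn3 rose in Tg-RKIP against FVB by log2 1.99 and 0.92 (edgeR, adjusted p = 5.50e-07 and 0.0088). Atp2a1 fell by 0.96 (adjusted p = 0.0066), a call lost by library size only, and Tnni2 did not pass.

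Upstream sequences of Myl3 and Myl4 are set side by side because these partners differed in opposite directions. The Myl3 stretch is GRCm38.p6 chr9:110763428-110763677, plus strand, and the Myl4 stretch chr11:104550413-104550662, plus strand. Capitals mark in Myl3 the MCAT letters on the minus strand (GGAATG) and on the plus strand (CATTCC) and then a CArG box.

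Myl3 upstream: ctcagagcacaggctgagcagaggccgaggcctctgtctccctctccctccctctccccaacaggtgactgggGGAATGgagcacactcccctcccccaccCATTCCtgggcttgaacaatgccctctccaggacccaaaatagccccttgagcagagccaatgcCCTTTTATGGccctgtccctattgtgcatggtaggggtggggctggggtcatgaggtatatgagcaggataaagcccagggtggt

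Myl4 upstream: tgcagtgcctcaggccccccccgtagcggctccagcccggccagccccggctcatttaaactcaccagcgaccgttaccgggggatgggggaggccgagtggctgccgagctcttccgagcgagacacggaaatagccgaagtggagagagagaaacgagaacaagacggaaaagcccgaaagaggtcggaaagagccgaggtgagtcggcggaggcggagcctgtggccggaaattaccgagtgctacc

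The Myl3 matches began at -177, -149 and -85. In the Myl4 stretch none of the 7 motifs searched was found, which were the TATA box with letters TATAAA, the GATA site searched as GATAAG, the E-box with letters CANNTG, the MCAT element searched as CATTCC, the T-box site searched as AGGTGT, the CArG box and the MEF2 site. The Myl3 start lay 32 bases from the start of the transcript with 67.0% of Myl3 reads. The Myl4 start is exactly that of ENSMUST00000018800, to which 38.5% of Myl4 reads were assigned, whereas ENSMUST00000123074, a retained-intron model that starts 29662 bases further on, took 54.0%. The Myl4 stretch shown is therefore upstream of only some of the Myl4 transcripts in the tables.

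**Figure D3:**
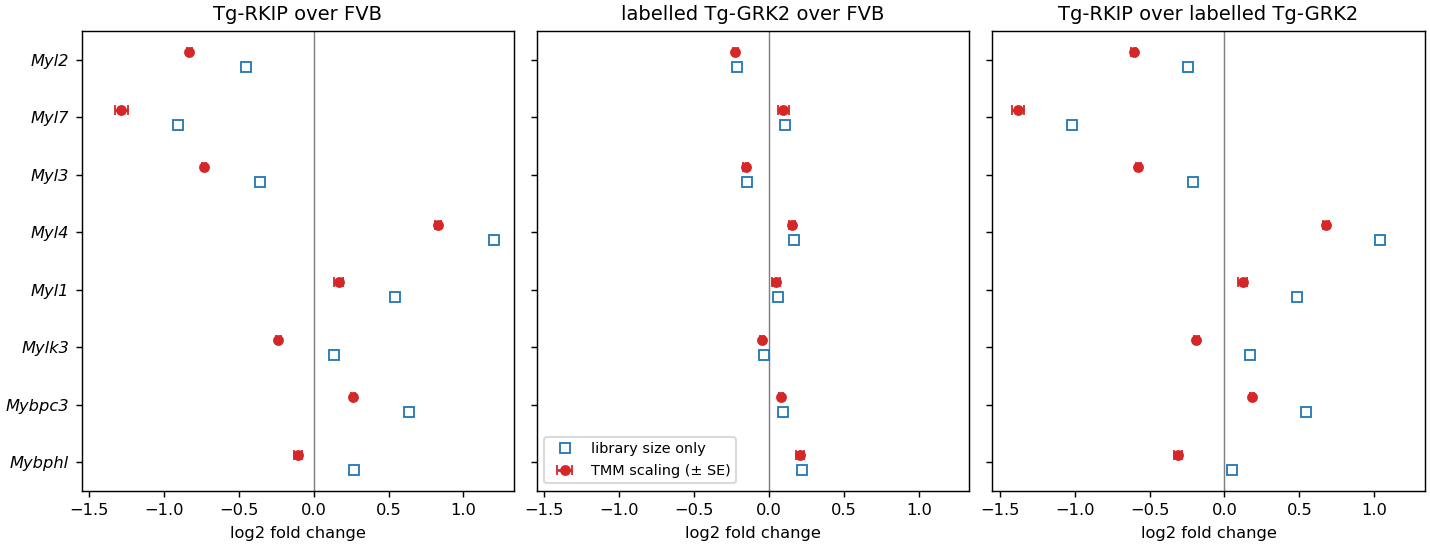
Log2 fold change of the 8 genes in the 3 comparisons (x axis, right is higher in the group named first); red points are edgeR estimates with TMM scaling and SE, open blue squares the same fit with library size only. Between Tg-RKIP and FVB Myl7 lies lowest at -1.28 and Myl4 highest at 0.83, and Mylk3 and Mybphl change side with the scaling.

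The kinase that phosphorylates the regulatory chain had a direction that depended on scaling, while its transcript makeup did not. Mylk3 (ENSMUSG00000031698, GRCm39 chr8:86050932-86112974, minus strand) stood at 311, 309 and 308 TPM in FVB, 304, 312 and 302 in hearts labelled Tg-GRK2 and 360, 361 and 356 in Tg-RKIP. In TPM the Tg-RKIP hearts were the highest and the ranges of the other groups overlapped. Its log2 difference between Tg-RKIP and FVB was -0.24 ± 0.02 on the TMM scale and 0.14 by library size only, so its direction depends on the scaling. Between Tg-RKIP and the libraries labelled Tg-GRK2 it was likewise -0.19 ± 0.02 and 0.17, and between the libraries labelled Tg-GRK2 and FVB -0.05 ± 0.02 and -0.04.

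The transcripts of Mylk3 differed in their shares. Nearly all reads went to a pair of transcripts with separate first exons. The inner first exon (GRCm39 chr8:86091318-86091953) belongs to ENSMUST00000034133 and the outer one (chr8:86107488-86107607) to ENSMUST00000122452. The outer transcript took 38.8%, 35.9% and 38.2% of Mylk3 reads in FVB, 33.4%, 31.1% and 31.7% in hearts labelled Tg-GRK2, and 51.7%, 51.7% and 54.3% in Tg-RKIP. The Tg-RKIP hearts were above all others and the hearts labelled Tg-GRK2 below all others. Shares within a gene do not depend on how libraries are scaled, but reads were assigned to transcripts by a method not given in the sources used here.

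Both upstream stretches of Mylk3 are shown, since the transcripts whose shares differed begin at or near these starts. The transcripts also differ in the length of their last exon, 1218 bases in the inner form and 1074 in the outer. Which part of the transcripts the share difference comes from was not tested. The inner is GRCm38.p6 chr8:85365325-85365574 and the outer chr8:85381042-85381291, both on the minus strand. The inner start equals that of ENSMUST00000034133, and the outer lies 63 bases from that of ENSMUST00000122452. Capitals mark the MCAT letters on the minus strand (GGAATG) in the inner stretch and GATAAG with its reverse CTTATC in the outer.

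Mylk3 inner start: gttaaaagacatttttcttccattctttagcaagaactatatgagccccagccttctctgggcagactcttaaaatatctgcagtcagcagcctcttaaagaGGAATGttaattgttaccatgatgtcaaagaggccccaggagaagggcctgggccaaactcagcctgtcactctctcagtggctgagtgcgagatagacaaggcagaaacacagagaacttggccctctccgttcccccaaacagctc

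Mylk3 outer start: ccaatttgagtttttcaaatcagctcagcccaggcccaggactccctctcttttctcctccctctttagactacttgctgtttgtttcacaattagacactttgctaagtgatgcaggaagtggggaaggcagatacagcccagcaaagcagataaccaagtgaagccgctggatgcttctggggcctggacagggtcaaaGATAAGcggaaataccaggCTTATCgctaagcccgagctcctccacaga

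The MCAT match of the inner stretch began at -148, and the GATA matches of the outer at -49 and -30. None of the marked motifs occurs in both stretches.

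**Figure D4:**
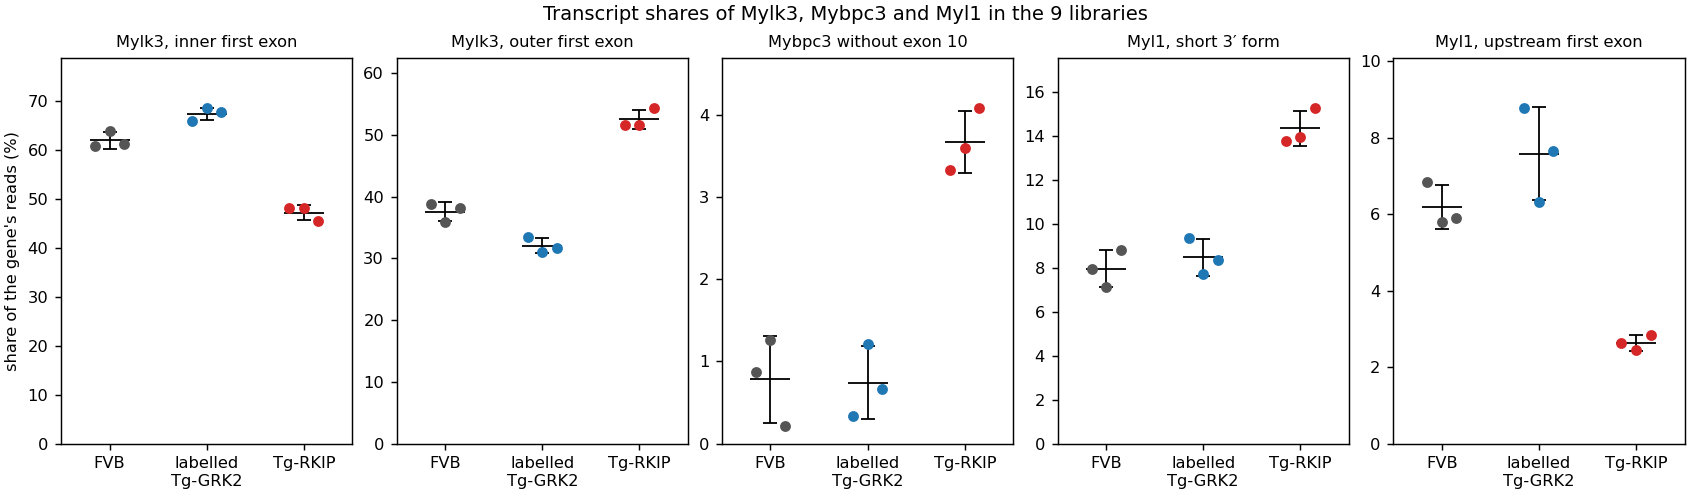
Share of the gene's reads (percent, y axes from 0, bars mean and SD) assigned to 5 transcripts in each heart: both first-exon forms of Mylk3, the Mybpc3 form without the 3-base exon 10, and the Myl1 forms without exons 6 and 7 and with the upstream first exon. In all 5 panels the Tg-RKIP points lie outside the range of the other 6 hearts, for example 51.7% to 54.3% for the outer Mylk3 form.

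Other genes that act on light chain phosphorylation were tested. Of 16 on the list, 10 rose, 5 fell and 1 (Calm3) did not pass between Tg-RKIP and FVB (edgeR, Benjamini-Hochberg over 15504 genes), with a median log2 difference of 0.19 beside 0.0085 over all genes. By library size only, 11 rose and 4 fell. The largest fall was that of Mylk4, a kinase of the same family, from 135 TPM in FVB to 26.4 in Tg-RKIP (log2 -2.48 ± 0.02, adjusted p = 2.31e-27). In the libraries labelled Tg-GRK2 Mylk4 was at 167 TPM and rose by log2 0.14 (adjusted p = 6.46e-06). Mylk2, the skeletal muscle kinase, rose by log2 2.00 ± 0.36 (adjusted p = 3.28e-05) from a level of 0.0969 TPM, and Mylk, the smooth muscle kinase, by 0.29 ± 0.04 (adjusted p = 1.19e-06).

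Genes of myosin phosphatase, which removes the phosphate, went in several directions. Its catalytic subunit gene Ppp1cb fell by 0.49 on the log2 scale (adjusted p = 3.66e-16), a call lost on the log2 TPM scale (-0.06), and the striated muscle targeting subunit gene Ppp1r12b fell by 0.61 (adjusted p = 2.15e-17). The targeting subunit genes Ppp1r12a and Ppp1r12c rose by 0.16 and 0.48 (adjusted p = 0.000155 and 1.27e-10). Of its inhibitor genes, Ppp1r14a and Ppp1r14b rose by 0.63 and 0.77 (adjusted p = 0.000543 and 6.24e-11), and Ppp1r14c fell by 0.42 (adjusted p = 1.42e-14), though on the log2 TPM scale its value was 0.03. Rock2, a kinase that inhibits the phosphatase, fell by 0.66 (adjusted p = 3.09e-17), and its partner Rock1 rose by 0.16 (adjusted p = 4.02e-06). Dapk3, another light chain kinase, rose by 0.52 (adjusted p = 4.01e-09). Of the genes of calmodulin, the calcium sensor that activates the MYLK enzymes, Calm2 rose by 0.31 (adjusted p = 1.03e-08), and Calm3 had a log2 difference of 0.03 (adjusted p = 0.233). In the libraries labelled Tg-GRK2, 5 of the 16 rose and 2 fell, and Ppp1r12b and Ppp1r14c were among those that rose, by 0.15 and 0.19 (adjusted p = 5.50e-06 and 1.10e-07).

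Light chain genes outside the set, mostly of smooth muscle and non-muscle myosin, were higher in Tg-RKIP. Of 6 tested, 5 rose and none fell, with a median log2 difference of 1.01, and 5 rose by library size only as well. Myl9, the smooth muscle regulatory chain, rose from 66.9 to 268 TPM (log2 1.59 ± 0.03, adjusted p = 1.16e-22). Myl6, the non-muscle essential chain, rose by 0.94 ± 0.02 (adjusted p = 5.80e-19), and its relative Myl6b by 1.44 ± 0.15 (adjusted p = 1.77e-08). The non-muscle regulatory chains Myl12a and Myl12b rose by 0.33 ± 0.02 and 1.08 ± 0.08 (adjusted p = 1.28e-13 and 5.11e-11). Mylpf, the fast skeletal regulatory chain, was near 1 TPM in every group and had a log2 difference of -0.07 ± 0.45 (adjusted p = 0.890), positive by library size only. In the libraries labelled Tg-GRK2 none of the 6 rose, and Myl9 and Myl12a fell by 0.13 and 0.08 (adjusted p = 0.00242 and 0.000890).

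Smooth muscle, fibroblast and macrophage markers were also higher in Tg-RKIP. The 5 smooth muscle markers summed to 316 to 340 TPM in FVB, 292 to 303 in hearts labelled Tg-GRK2 and 766 to 784 in Tg-RKIP. Of the 5, 4 rose in Tg-RKIP, with Acta2, Tagln and Cnn1 at log2 1.21, 1.32 and 1.32 (adjusted p = 1.03e-22, 1.50e-19 and 3.37e-14), while the smooth muscle heavy chain Myh11 fell by 0.51 (adjusted p = 3.66e-12), a call lost on the log2 TPM scale (-0.10). The 5 fibroblast markers summed to 767 to 796 TPM in FVB, 807 to 821 in the libraries labelled Tg-GRK2 and 1875 to 1882 in Tg-RKIP, and the 4 macrophage markers to 91.8 to 93.1, 95.5 to 102 and 236 to 242. In the hearts labelled Tg-GRK2 these 2 sums were above FVB, and the smooth muscle sum was below it. Of the 5 fibroblast markers only Pdgfra and Col1a1 passed the threshold there, with a list median of 0.0018. Of the 4 macrophage markers 2 did, with a median of 0.11. None of these lists had a gene at 0 reads in any group, and their part in the light chain results was not tested.

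**Figure D5:**
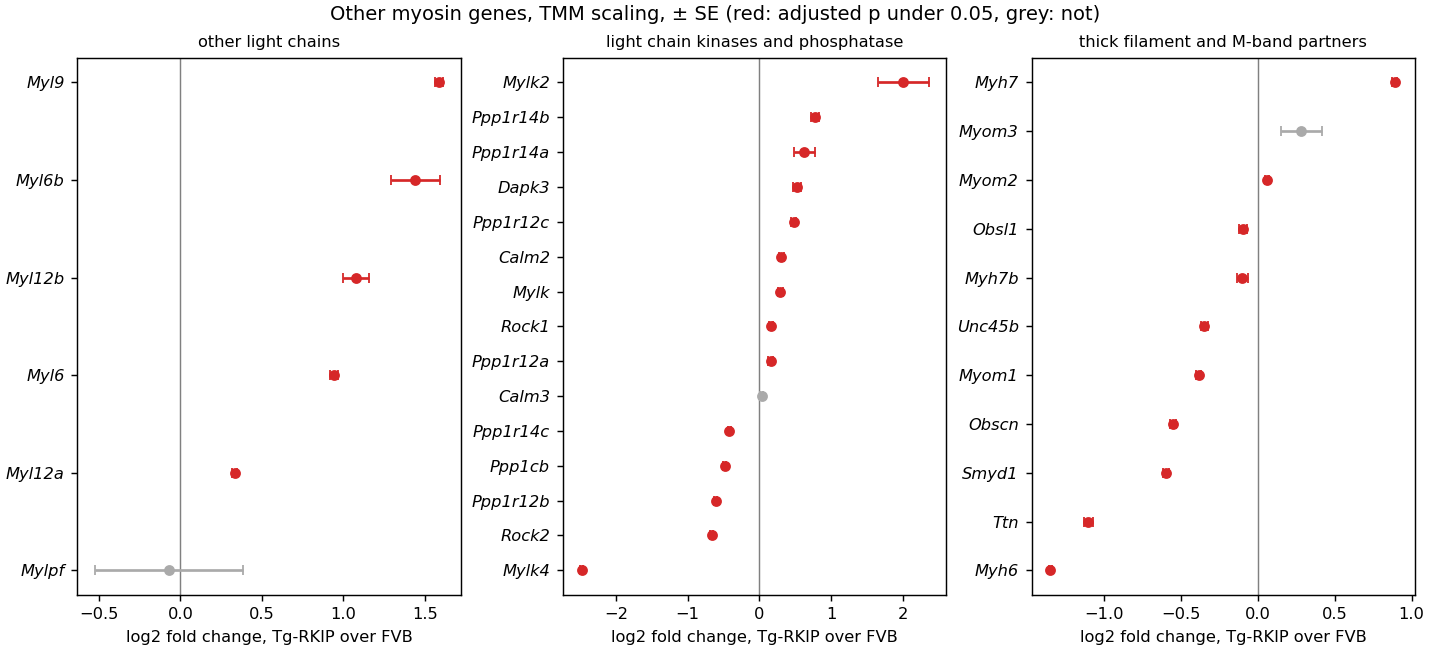
Log2 fold change of Tg-RKIP over FVB (x axis, TMM scaling, bars SE) for tested genes of 3 lists; red points have an adjusted p under 0.05 by edgeR, grey ones do not. Of the other light chains 5 of 6 lie to the right, among the kinase and phosphatase genes Mylk4 lies furthest left at -2.48, and of the heavy chains Myh6 is at -1.35 (-0.19 on the log2 TPM scale) and Myh7 at 0.89.

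The binding proteins were both higher in TPM in Tg-RKIP. Mybpc3 (ENSMUSG00000002100, GRCm39 chr2:90948489-90966861, plus strand), the cardiac myosin-binding protein C gene, stood at 1226, 1219 and 1221 TPM in FVB, 1331, 1357 and 1320 in hearts labelled Tg-GRK2, and 1982, 1935 and 1958 in Tg-RKIP. The FVB hearts differed from each other by only 0.272% (coefficient of variation), and the groups did not overlap. Its log2 difference was 0.26 ± 0.01 between Tg-RKIP and FVB, 0.08 ± 0.01 between the libraries labelled Tg-GRK2 and FVB, and 0.18 ± 0.01 between Tg-RKIP and the libraries labelled Tg-GRK2, against 0.64, 0.09 and 0.55 by library size only.

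Mybphl (ENSMUSG00000068745, GRCm39 chr3:108272227-108287373, plus strand) encodes a protein related to myosin-binding protein H that is enriched in atria and conduction tissue. It was the least abundant member at 86.0, 83.0 and 84.9 TPM in FVB, 98.7, 102 and 102 in hearts labelled Tg-GRK2, and 103, 108 and 104 in Tg-RKIP. All 6 hearts of the other groups stood above FVB in TPM. The log2 difference between the libraries labelled Tg-GRK2 and FVB was 0.21 ± 0.03 on the TMM scale and 0.22 by library size only. Between Tg-RKIP and FVB it was -0.11 ± 0.03 on the TMM scale and 0.27 by library size only, so its direction there depends on the scaling, as it does against the libraries labelled Tg-GRK2 (-0.31 ± 0.03 and 0.05). Strandedness is not given in the sources used here, so reads of Mybphl may be mixed with those of the antisense gene Gm12522 where they overlap. Gm12522 had only 1 to 10 reads per library against 1944 to 2979 for Mybphl.

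Only Mybpc2 among the other binding protein genes was both tested and past the threshold. Mybpc2, the fast skeletal form, rose from 11.2 to 28.1 TPM in Tg-RKIP (log2 0.89 ± 0.05, adjusted p = 2.14e-13) and by 0.19 in the libraries labelled Tg-GRK2 (adjusted p = 0.00830). Mybpc1, the slow skeletal form, stood at 0.273 TPM in Tg-RKIP and 0.165 in FVB, with a log2 difference of 0.68 ± 0.49 between Tg-RKIP and FVB (adjusted p = 0.217). Mybph was under the expression filter.

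Among the transcripts of Mybpc3, ENSMUST00000169776 took 95.7% to 99.2% of the reads in every library. ENSMUST00000137942, which lacks the 3-base exon 10 of the main form (GRCm39 chr2:90952685-90952687) and 20 bases of its exon 2, took 0.867%, 1.27% and 0.216% in FVB, 0.338%, 1.21% and 0.669% in hearts labelled Tg-GRK2, and 3.32%, 3.60% and 4.08% in Tg-RKIP. The Tg-RKIP hearts had the highest shares, and the other 6 hearts overlapped. The Mybpc3 stretch upstream of the main start is GRCm38.p6 chr2:91117894-91118143, plus strand, and is shown because its start matches that of the transcript with nearly all Mybpc3 reads. Capitals mark a MEF2 site (bound by MEF2 factors) and GATAAG, which began at -90 and -60.

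Mybpc3 upstream: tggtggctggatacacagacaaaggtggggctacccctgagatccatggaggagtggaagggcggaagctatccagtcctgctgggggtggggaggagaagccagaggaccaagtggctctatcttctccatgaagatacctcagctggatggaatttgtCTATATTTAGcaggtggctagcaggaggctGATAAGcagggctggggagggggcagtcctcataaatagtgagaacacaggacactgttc

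A MEF2 site was found in 2.92% of all 32817 promoters and in this promoter alone among the 10 of the members. The Mybphl stretch held none of the 7 motifs. A match or its absence describes these letters only.

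Other members also showed transcript shares that set Tg-RKIP apart. Myl1 reads went mainly to ENSMUST00000119429. ENSMUST00000027151, which starts at the upstream first exon, took 6.84%, 5.79% and 5.91% of Myl1 reads in FVB, 8.76%, 6.33% and 7.66% in hearts labelled Tg-GRK2 and 2.63%, 2.44% and 2.84% in Tg-RKIP. ENSMUST00000120415, which lacks exons 6 and 7 of the main form, took 7.13% to 8.80%, 7.71% to 9.37% and 13.8% to 15.3%. For Myl2, the short model ENSMUST00000155612 held 0.953% to 4.88% of reads in FVB, 1.95% to 2.70% in hearts labelled Tg-GRK2 and 0.0562% to 0.203% in Tg-RKIP. The main transcripts of Myl2, Myl3 and Myl4 overlapped between groups in their shares.

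The heavy chains that these light chains bind were tested as partners. Myh6, the alpha heavy chain that predominates in adult mouse heart, fell by 1.35 on the log2 scale in Tg-RKIP (adjusted p = 1.45e-28), and Myh7, the beta heavy chain, rose by 0.89 (adjusted p = 6.81e-22). The size for Myh6 depends on the unit: summed TPM, which weights each transcript by its length, was 6484 in Tg-RKIP against 7374 in FVB, a log2 TPM difference of -0.19, and by library size only the reads gave -0.98. In the libraries labelled Tg-GRK2 Myh6 rose by 0.12 and Myh7 fell by 0.09 (adjusted p = 2.35e-09 and 0.000244), calls that were lost on the log2 TPM scale (0.07 and -0.07). Of the 11 thick filament and M-band genes, 2 rose, 8 fell and 1 did not pass between Tg-RKIP and FVB, with a median of -0.35. By library size only it was 5 and 4. The giant scaffold gene Ttn fell by 1.10 (adjusted p = 2.62e-19, with -0.56 on the log2 TPM scale), and Smyd1, a methyltransferase that assists myosin assembly, by 0.60 (adjusted p = 1.07e-17). In the libraries labelled Tg-GRK2, 7 of the 11 rose and 2 fell, with Ttn up by 0.33 (adjusted p = 8.56e-09). Between Tg-RKIP and the libraries labelled Tg-GRK2, Myh6 and Ttn had log2 differences of -1.48 and -1.43, or -0.25 and -0.90 on the log2 TPM scale, and Myh7 was higher by 0.98.

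Atrial genes outside the set did not share a direction. Of 11 tested, 3 rose, 7 fell and 1 did not pass between Tg-RKIP and FVB, and 5 rose and 5 fell by library size only. Nppa, the atrial natriuretic peptide gene, rose by 1.88 ± 0.01 (adjusted p = 5.52e-28), the same direction as Myl4. The atrial potassium channel genes Kcnj3 and Kcnj5 fell by 1.54 and 1.07 (adjusted p = 2.76e-22 and 6.88e-18), and Gja5, a gap junction gene of atria and conduction tissue, fell by 1.33 (adjusted p = 4.08e-14), the direction of Myl7. In the libraries labelled Tg-GRK2 Nppa rose by 0.08 (adjusted p = 0.000384), and 4 of the 11 rose and 1 fell.

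Ventricular genes were as mixed. Of 6, 2 rose, 3 fell and 1 did not pass between Tg-RKIP and FVB. Irx4, a ventricular transcription factor, fell by 0.59, the channel subunit gene Kcnip2 by 0.51 and the ventricular gap junction gene Gja1 by 0.50 (adjusted p = 2.22e-10, 2.55e-15 and 4.00e-16), and Irx5 rose by 0.45 (adjusted p = 0.000141). In TPM, Irx4, Kcnip2 and Gja1 stood in Tg-RKIP and FVB at 13.1 and 14.8, 143 and 152, and 232 and 246 TPM.

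Genes of cardiac transcription factors, among them those that read the motifs above, were also tested. Of 11 cardiac transcription factor genes, 2 rose, 8 fell and 1 did not pass in Tg-RKIP, against 5 and 3 by library size only. Myocd, the cofactor of serum response factor at CArG boxes, had a log2 difference of -1.50 ± 0.04 (adjusted p = 1.90e-18). Mef2a, of the MEF2 family, fell by 1.00 ± 0.02 (adjusted p = 1.40e-20), and Tead1, which reads MCAT elements, by 0.69 ± 0.02 (adjusted p = 5.37e-17). Srf, the gene of serum response factor itself, fell by 0.09 ± 0.03 (adjusted p = 0.0130). The GATA factor genes Gata4 and Gata6 fell by 0.21 and 0.33 (adjusted p = 2.38e-06 and 5.39e-09). In TPM, Srf, Gata4 and Gata6 were higher in Tg-RKIP than in FVB, at 61.0 and 49.7, 62.8 and 51.2, and 31.0 and 29.1. Nkx2-5, the cardiac homeobox gene, whose site was not searched, rose by 0.46 ± 0.04 (adjusted p = 1.60e-10).

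Cardiomyocyte markers gave the background of the tissue itself. Of 8, none rose, 7 fell and 1 did not pass between Tg-RKIP and FVB on the TMM scale, whereas 4 rose and 4 fell by library size only. Ryr2, Pln and Atp2a2, which handle calcium, fell by 2.07, 1.34 and 1.33 (adjusted p = 1.12e-27, 1.03e-26 and 3.61e-28), and Tnni3, cardiac troponin I, fell by 0.52 (adjusted p = 4.88e-18), a call lost on the log2 TPM scale (-0.05). The sarcomere genes Actc1, Actn2, Tnnt2 and Tnnc1 differed by only -0.02, -0.12, -0.10 and -0.10, and Actc1 did not pass. In TPM they were higher in Tg-RKIP than in FVB, at 11515 and 8728, 1529 and 903, 9507 and 7660, and 5247 and 4201.

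The genes whose profile over the 9 libraries was most like that of 3 members were looked up among 11352 genes with a mean of at least 100 reads. Likeness is the root mean square difference in log2 CPM, each gene centred on its FVB mean. Closest to Myl7 were Pde4d, a cAMP phosphodiesterase gene, at 0.04, then Gm32027, Ankrd33b, Tmem65 and Dmd, the dystrophin gene, at up to 0.07. Closest to Myl4 were Lcp1, Gpd1, Csf1r, Vasp and Entpd2, at 0.03 to 0.04, of which Csf1r is also on the macrophage list. Closest to Mybphl were Man1a, Zmiz2, Prrx1, Oga and Plekha6, also at 0.03. Likeness here rests on 3 group levels in the same 9 libraries and was not tested.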

How the data were processed

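Hearts were sequenced as single reads of 50 bases from fragmented, randomly primed mRNA. The authors deposited a matrix of read counts per transcript and, per library, TPM values. Per the labels the genome build is GRCm39. The aligner, the counting method and the strandedness are not given in the sources used here. TPM recomputed from counts and lengths matched the deposited TPM within 5.5e-06. Transcripts were summed by gene name. Promoters came from a RefSeq table of GRCm38.p6, which held a start for all 8 members, and transcript starts from GENCODE M21. No coordinates were converted between builds.

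Genes were tested with edgeR 4.0.16 (filterByExpr, TMM, glmQLFit and glmQLFTest, R 4.3.3) over all 9 libraries with a mean per group, and p-values were Benjamini-Hochberg adjusted over 15504 genes with a threshold of 0.05. TMM factors ran from 1.18 to 1.19 in Tg-RKIP and from 0.913 to 0.928 elsewhere. The scripts were tested on simulated data. Alternatives used DESeq2 1.42.0, limma 3.58.1 on log2(TPM + 0.1) and log2(TPM + 1), other scalings and filters, a replicate block, only the groups compared, the most abundant transcript, and each library left out. Replicates are different mice per the labels, and no 2 libraries were identical. Over 11352 genes, the median squared difference between 2 libraries of a group was 1.26 to 1.56 times that of read sampling. Between groups it was 3.55 to 54.1 times. Spread within groups was thus close to read sampling, and the SE and p-values rest on that spread. Whether it holds the full spread among mice was not tested.

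The members and lists were chosen with earlier results of these data known. Named genes were all members, Pebp1 and Grk2, up to 4 per list with the largest change among those past the threshold whose higher group averaged 100 counts or more, and relatives of the members whatever their value, with the 5 genes nearest in profile to Myl7, Myl4 and Mybphl. Some skeletal muscle markers, cardiac transcription factor genes and cardiomyocyte markers were named besides. The 2 comparisons with FVB share the control hearts. Of the light chain kinase and phosphatase list, 1 gene is included in the counts but is not reported here by name.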

Additional observations from a re-analysis of the deposited data

How the results depend on the processing

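Over 480 recomputed log2 differences of the members, 440 kept direction and side of the threshold, 18 lost the call, 9 gained it and 13 changed sign. Mylk3 changed sign between Tg-RKIP and FVB by library size only (0.14) and in limma on log2(TPM + 0.1) or log2(TPM + 1) (0.21 in both), between Tg-RKIP and the libraries labelled Tg-GRK2 under the same settings (0.17, 0.23 and 0.23), and between the libraries labelled Tg-GRK2 and FVB with the most abundant transcript (0.0765). Mybphl did so between Tg-RKIP and FVB (0.27, 0.31 and 0.31) and between Tg-RKIP and the libraries labelled Tg-GRK2 (0.0506, 0.0538 and 0.0533). These scalings raise the median of all genes. Mylpf, not called, changed sign by library size only (0.30), in limma (0.50 and 0.25) and with some single libraries left out (-0.4602 to 0.2675 over all 9), Ppp1r14c in limma (0.0269 and 0.0267), and Calm3 with the most abundant transcript (-0.0035), as did Grk2 in its own labelled libraries (-0.11); the cause was not tested.

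Comparing hearts labelled Tg-GRK2 with FVB called 3793 genes (1895 higher, 1898 lower), against 2191 and 2232 in limma and 1660 with the most abundant transcript, where 2 members were called instead of 6; of the 4 myosin lists 10 and 11 genes were called in limma instead of 19. Between Tg-RKIP and FVB 11460 genes were called (5709 higher, 5751 lower), by library size only 9710 higher and 2649 lower, and between Tg-RKIP and the libraries labelled Tg-GRK2 11551 (5874 and 5677), by library size only 9608 and 2847. The atrial share of the regulatory pair in Tg-RKIP, labelled Tg-GRK2 and FVB was 3.70%, 6.16% and 5.00% in reads and 7.84%, 13.1% and 10.4% with the most abundant transcript, which drops part of Myl2. That of the essential pair was 29.4%, 14.9% and 12.4% in reads, and 32.8%, 15.6% and 13.2% with the most abundant transcript. In that last setting the hearts labelled Tg-GRK2 (14.6% to 17.2%) and FVB (12.2% to 14.9%) overlapped.

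No pairing of hearts by replicate number was seen: deviations of same-numbered libraries correlated at -0.054 to 0.049, with none of 9 pairs over 0.1. Since spread within groups was close to read sampling, this check could not exclude a pairing. With a replicate block 11401, 3660 and 11491 genes were called for Tg-RKIP against FVB, labelled Tg-GRK2 against FVB and Tg-RKIP against labelled Tg-GRK2. In the second, Myl7 then passed the threshold (0.09), so that 7 members were called, and no other member or named gene changed its call.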
